A study of Drosophila melanogaster with 5 samples.

Results

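The genes dx, CG3198 and CG14442 lie within 161009 bp of each other on the X chromosome of Drosophila melanogaster, and each holds 3 sites called as bound by MSL2 in S2 cells. The peaks described here are those whose midpoint lies inside one of these genes or within 1 kb of it, which gives 9 of the 709 peaks of the deposited list and 3 of the 2705 X genes in the RefSeq gene table. All 9 midpoints lie inside the genes, and none was added by the 1 kb on either side. The genes were chosen by the number and position of their peaks in this same list, so the counts, positions and places in the list given for them are descriptions and were not tested. They are not adjacent genes: 12 annotated genes lie between dx and CG3198, and 7 between CG3198 and CG14442.

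MSL2 was mapped by CUT&RUN, in which a nuclease directed by an antibody releases the DNA around a chromatin protein in permeabilized cells. S2 is an established fly cell line of male type. The labels name 3 libraries made with rabbit serum against MSL2 and 2 control libraries, whose target is labelled PPI, and the extract protocol names a pre-immune serum; no genotype, drug or time point is given for either group. All libraries come from the same cell line, and the deposited result is a single list called on MSL2 tags against control tags. It has no value per library, so no replicate error can be attached to a peak, and how often a peak recurred among the 3 MSL2 libraries was not analysed here. It holds no expression values, and the cell line was not checked against markers. The MSL2 tag directory held 7890306 tags according to the file header.

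MSL2 is the male-specific subunit of the MSL complex, which brings the transcription of the single male X up to the level needed to match the autosomes. The complex also contains the acetyltransferase MOF and the noncoding roX RNAs, and it acetylates histone H4 over active genes of the X. It is known to bind first at high-affinity sites, many of which carry GA-rich sequence elements, and to be found from there over neighbouring active genes. A gene can therefore be described by where its called sites lie and by which neighbours carry sites as well.

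The gene dx (gene 31589) encodes Deltex, a cytoplasmic ubiquitin ligase that regulates the Notch receptor. It extends from X 6533999 to 6538575 (dm6, the same assembly as Release 6), a length of 4577 bp. Its first peak, at X 6534249 to 6534399, has its midpoint 325 bp past the lower-coordinate end of the gene. The second, at X 6536821 to 6536971, lies 63.3% of the way along the gene, and the third, at X 6537922 to 6538072, lies 578 bp before the higher-coordinate end. The peaks of dx are thus spread over most of the gene, with 3673 bp between the first and last midpoints, or 80.2% of its length. The gene table gives no strand, exon or transcript, so which end is the start of transcription was not assigned, and the same holds for the genes below.

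The gene CG3198 (gene 31602), which the gene table lists as protein-coding without a product name, extends over 5435 bp from X 6668539 to 6673973. The first of its peaks lies at X 6669196 to 6669346, the second at X 6669971 to 6670121 and the third at X 6670544 to 6670694. Their midpoints are 732, 1507 and 2080 bp from the lower-coordinate end. They are packed into 1348 bp, which is 24.8% of the gene, and the remaining 3354 bp up to the higher-coordinate end hold no peak.

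The gene CG14442 (gene 31609), also protein-coding and without a product name in the table, extends over 5712 bp from X 6689296 to 6695007. A peak at X 6691585 to 6691735 lies 41.4% of the way along it. The others, at X 6694219 to 6694369 and X 6694554 to 6694704, lie 713 and 378 bp before the higher-coordinate end. Their midpoints are 335 bp apart, and 0.6% of the 708 distances between adjacent peaks on X are as short or shorter. The peak caller was set to a minimum distance of 300 bp, and the shortest distance between midpoints on X is 286 bp.

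**Figure D1:**
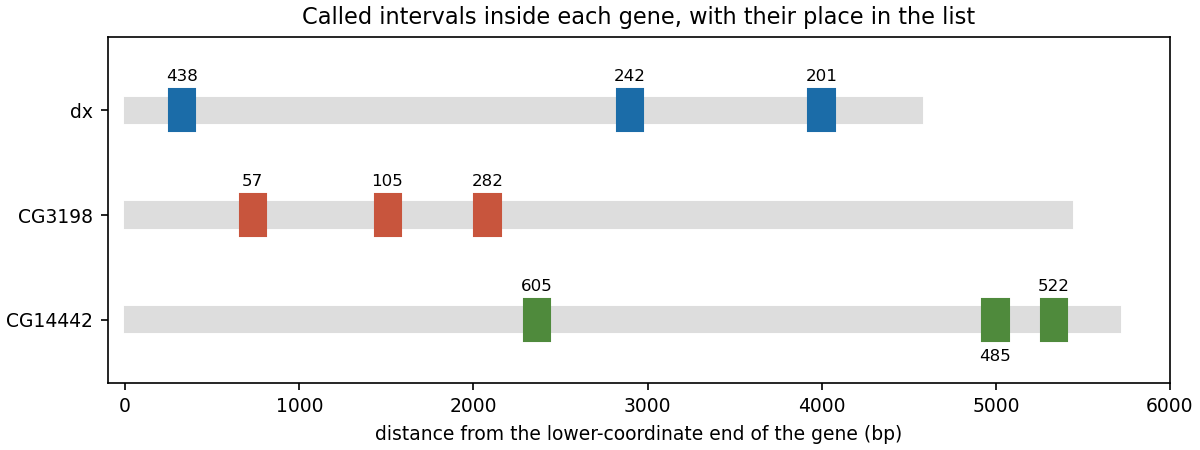
Position of the 9 called intervals (coloured blocks, 151 bp wide, to scale) in dx, CG3198 and CG14442 (grey bars), in bp from the lower-coordinate end of each gene; the number at each block is its place in the list of 709. The blocks are spread over dx, lie in the lower-coordinate part of CG3198, and form a close pair near the higher-coordinate end of CG14442.

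The 3 genes differ in where their peaks stand in the list. The list is not in order of position, and the number in each peak's name follows the place in the list closely (Spearman's rho 0.998 across the 709 peaks, a description). The meaning of this order is not given in the file, and it is not taken here as a rank of strength. In CG3198 the peaks are at places 57, 105 and 282, with the numbers 91, 175 and 377 in their names. In dx they are at places 438, 242 and 201 in order of position, with the numbers 623, 352 and 276. In CG14442 they are at places 605, 485 and 522, with the numbers 1151, 748 and 919. The range of places in CG14442 overlaps neither that of dx nor that of CG3198, while the ranges of dx and CG3198 overlap. Each range rests on 3 peaks, and ranges that do not overlap are also found among other X genes with 3 midpoints. Those of nocte (42 to 116) and CHES-1-like (427 to 576) are a case. How often this occurs was not counted, so the separation is not read as a trait of these genes. Of the 9 peaks, 5 are among the first 354 of the list: all 3 of CG3198, 2 of dx and 0 of CG14442. The first 354 and last 355 peaks are an even division of the 709. The count of 5 of 9 is thus near the share of the whole list.

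Having 3 or more midpoints inside is uncommon among X genes, at 1.48% (40 of 2705), and 2.74% (74 genes) have 3 or more when midpoints within 1 kb are counted. Since the 3 genes were chosen for this property, it says nothing more about them. A gene with at least 1 midpoint inside is found in 15.2% of X genes. Among the 120 protein-coding X genes with a length from 4577 to 5712 bp, the range these 3 genes set, 42 (35.0%) held a midpoint and 78 held none: 29 held 1, 10 held 2 and 3 (2.50%) held 3. Those 3 are dx, CG3198 and CG14442 themselves, which set the range and were chosen for their peaks. That no other gene joined them is therefore not read as a trait of these genes. Inside the genes, the 6 distances between adjacent midpoints run from 335 to 2634 bp with a median of 938 bp. The median over all 708 adjacent distances on X was 7477 bp. Distances inside a gene cannot exceed its length, so these values are not a like-for-like comparison.

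A closer comparison is with the X genes that hold exactly 3 midpoints, of which there are 31, with 30 of them protein-coding. Their median length is 10250 bp, and the distance from the first to the last midpoint has a median of 8491 bp and runs from 1103 to 24270 bp. From the shortest such distance, CG3198 is number 4, CG14442 number 7 and dx number 9. From the shortest gene they are numbers 4, 5 and 3, and the distance cannot exceed the length of the gene. As a share of gene length the median is 74.7%, which dx exceeds at 80.2% and which CG14442 (52.0%) and CG3198 (24.8%) do not reach. By the median place of its peaks, CG3198 is number 3 among the 31 genes, counted from the earliest, dx is number 9 and CG14442 is number 27. All 3 peaks were among the first 354 of the list in 9 of the 31 genes, CG3198 among them. All were among the last 355 in 2 genes, of which CG14442 is one, and the other 20 genes, with dx among them, had peaks in both.

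**Figure D2:**
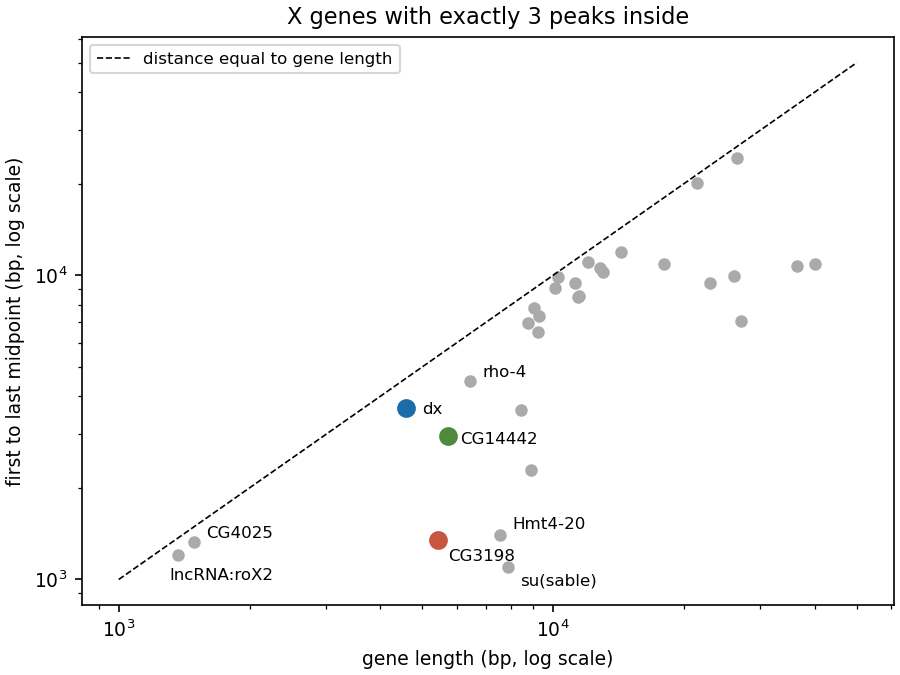
Distance from the first to the last midpoint (bp, log scale) against gene length (bp, log scale) for the 31 X genes with exactly 3 peaks inside; each point is a gene, and the dashed line marks a distance equal to the gene's length. dx (3673 bp) lies near the line, and CG3198 (1348 bp) lies well below it.

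With the 3 genes themselves left out, the genes most like them in number of peaks and in length were the same for all 3. With the same count of 3 midpoints and the closest length, they are rho-4, Hmt4-20 and su(sable). These come next in length after the 3 genes among the X genes with exactly 3 midpoints, so that all 3 share them follows from the rule of likeness. The gene rho-4 (gene 32109), of the rhomboid protease family, is 6451 bp long and has its first and last midpoints 4487 bp apart. Hmt4-20 (gene 31015), a histone methyltransferase gene, is 7551 bp long with 1402 bp between them. In su(sable) (gene 31012), which encodes an RNA-binding protein, the distance is 1103 bp in 7871 bp. Likeness here is an equal count and the smallest log2 ratio of lengths, which runs from 0.18 between rho-4 and CG14442 to 0.78 between su(sable) and dx.

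The surroundings of the genes differ. The neighbours of dx are the ribosomal protein gene RpL7A, which ends 650 bp below it, and CG34417, which starts 2195 bp above it. Neither holds a peak. The nearest peak below dx, at X 6372897 to 6373047, lies 161027 bp from the gene and 57 bp from PpV, a protein phosphatase gene. The nearest one above is 53709 bp away. The peaks of dx are therefore an isolated group, with 161352 bp from midpoint to midpoint on the lower side and 54287 bp on the higher side; of the 708 adjacent distances on X, 35 are longer than the first and 115 are longer than the second.

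CG3198 and CG14442 lie close together, 15322 bp apart, in a stretch dense in genes. Ctr1A, a copper transporter gene, ends 280 bp below CG3198, and Mcm6, a subunit gene of the replicative helicase, starts 413 bp above it. The nearest peaks lie 5857 bp below CG3198 and 4292 bp above it. CG3184 ends 521 bp below CG14442, and CG14440 starts 858 bp above it. The nearest peak below CG14442 is 1802 bp from the gene, the closest of all peaks that the 1 kb limit left out. Above CG14442 no peak follows for 85473 bp from its last midpoint, a distance exceeded by 76 of the 708 on X. The next peak, at X 6780027 to 6780177, lies between shf and C3G, 443 bp from shf.

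Between dx and CG3198 there are 129963 bp with 6 peaks. One lies inside Pat1, at X 6592209 to 6592359, 249 bp from the noncoding gene lncRNA:CR43832, which itself lies within Pat1. Another is in APC7, a subunit gene of the anaphase-promoting complex, at X 6597127 to 6597277, 114 bp from the lower-coordinate end. A further pair of peaks lies near the middle of Cdc7, which encodes a kinase needed to start DNA replication, at X 6656994 to 6657144 and X 6657362 to 6657512, with midpoints 368 bp apart. The fifth peak, at X 6660046 to 6660196, falls in the space between Cdc7 and CG3224, 412 bp from the former and 431 bp from the latter. The last, at X 6662607 to 6662757, is in Ctr1A. The long genes in this interval, CG34417 with 48403 bp and pigs with 52954 bp, hold 0 peaks each, and they account for most of its length.

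Between CG3198 and CG14442 there are 4 peaks. The first, at X 6678190 to 6678340, lies in ND-ASHI, a gene for a subunit of mitochondrial complex I, 159 bp below the lower-coordinate end of the overlapping gene Fum1. The second, at X 6679553 to 6679703, is inside Fum1, a fumarase gene. The third, at X 6684326 to 6684476, is inside Pink1, which encodes a kinase of mitochondrial quality control, 603 bp from its lower-coordinate end. The fourth, at X 6687419 to 6687569, has its midpoint 74 bp above CG44303 and 102 bp below CG3184. Mcm6 and Fum2 held no midpoint.

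The 10 peaks between the genes stood at places 248 to 616 of the list. Among its first 354 were 2 of these 10, beside 354 of all 709 peaks, a difference that was not tested. The 2 are the first of the pair in Cdc7, at place 248, and the peak in Pink1, at place 315. From dx to CG14442, both included, there are 22 annotated genes, of which 10 held at least 1 midpoint. The share over all X genes was 15.2%; the stretch was chosen for its peaks, and 3 of the 10 are the chosen genes. Within 500 bp of a gene end lay 2 of the 9 peaks, against 56.6% (401) of the 709 in the list and 5 of the 10 peaks between the genes. The rule required a place inside or beside these genes, and these shares were not tested against each other.

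**Figure D3:**
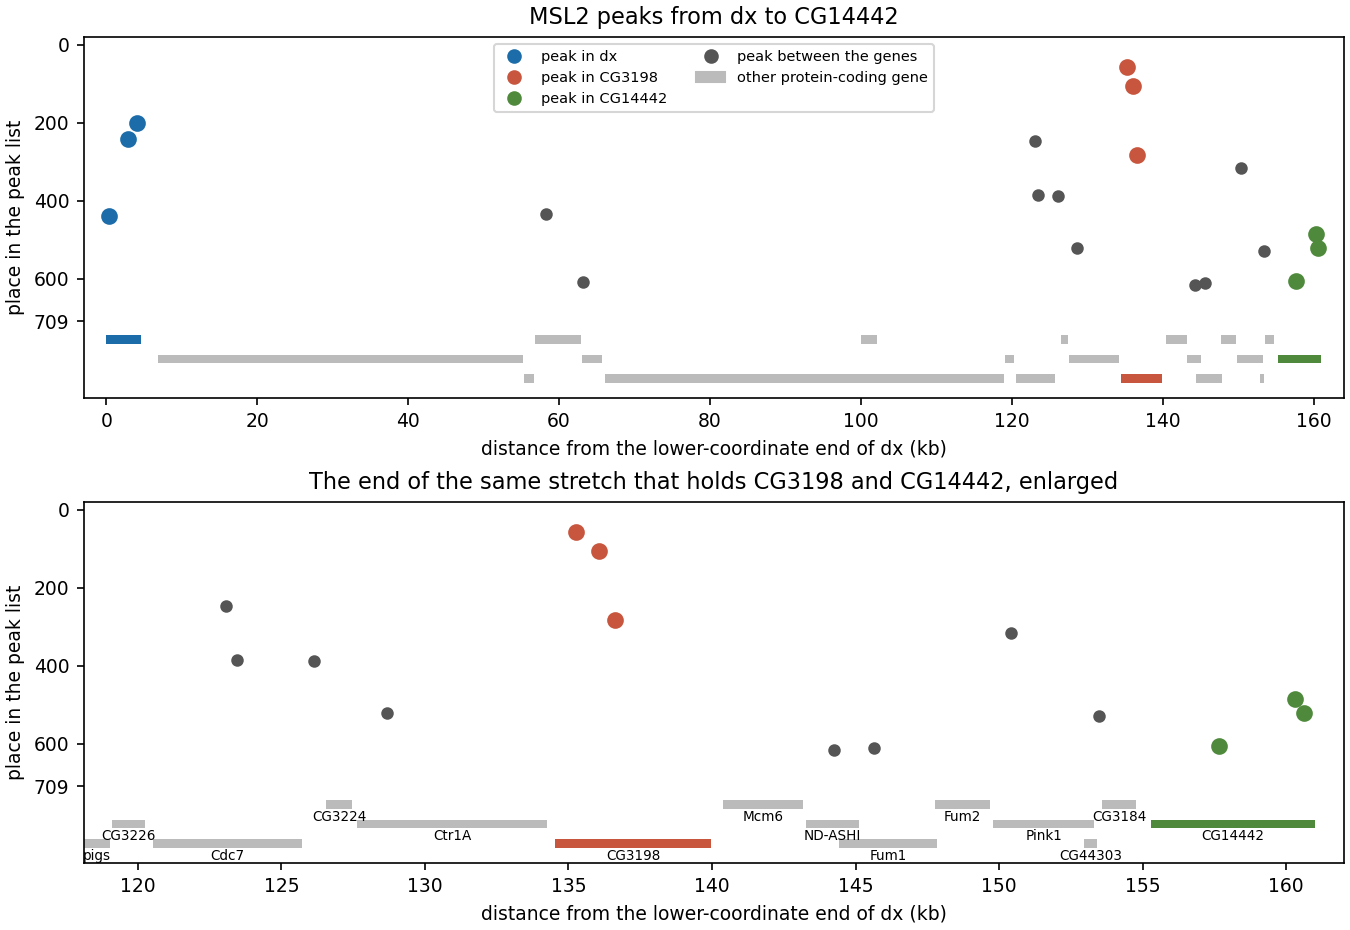
The 19 peaks from dx to CG14442 by distance from the lower-coordinate end of dx (kb) and place in the list of 709 (vertical axis, first place at the top); bars at the foot are protein-coding genes, on 3 levels for legibility. The lower panel enlarges the end of the stretch with CG3198 and CG14442, where 14 of the 19 peaks lie; the earliest places of the stretch, 57 and 105, are in CG3198.

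The peaks at CG3198 and CG14442 belong to one run of neighbouring peaks. When adjacent peaks were linked if their midpoints lay within 10 kb of each other, the 709 peaks formed 294 chains, of which 118 were single peaks and 53 held 3 peaks. The chain with CG3198 and CG14442 held 14, the most of any on X, and the next largest held 9. It runs from X 6656994 to 6694704, over 37711 bp, and overlaps 12 genes, of which 7 hold a midpoint: Cdc7, Ctr1A, CG3198, ND-ASHI, Fum1, Pink1 and CG14442. Distances between its adjacent midpoints run from 335 to 7646 bp with a median of 2634 bp. Of its 14 peaks, 6 lie in CG3198 or CG14442 and 8 elsewhere, and 5 are among the first 354 of the list. The 3 peaks of dx form a chain of their own.

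The size of that run depends on the link. With links of 5 kb it breaks, and CG3198 is left in a chain of 3 peaks and CG14442 in one of 7, the most of the 449 chains then found. With links of 20 kb it stays at 14, but 4 of 196 chains are larger, up to 21 peaks. Counted in windows that start at a peak, 40 kb from the first midpoint in Cdc7 held 14 peaks, more than any of the other 708 windows, against a median of 3. In 20 kb, the fullest window of the stretch held 7, a number that 6 windows on X reach. Windows can overlap, and several of these 6 start at peaks of this same stretch. In 100 kb the fullest window of the stretch held 15, and 8 windows on X held more. The link and the windows were set after the positions were seen, and the stretch was chosen for its peaks. Its standing among the chains and windows on X is therefore a description and was not tested.

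**Figure D4:**
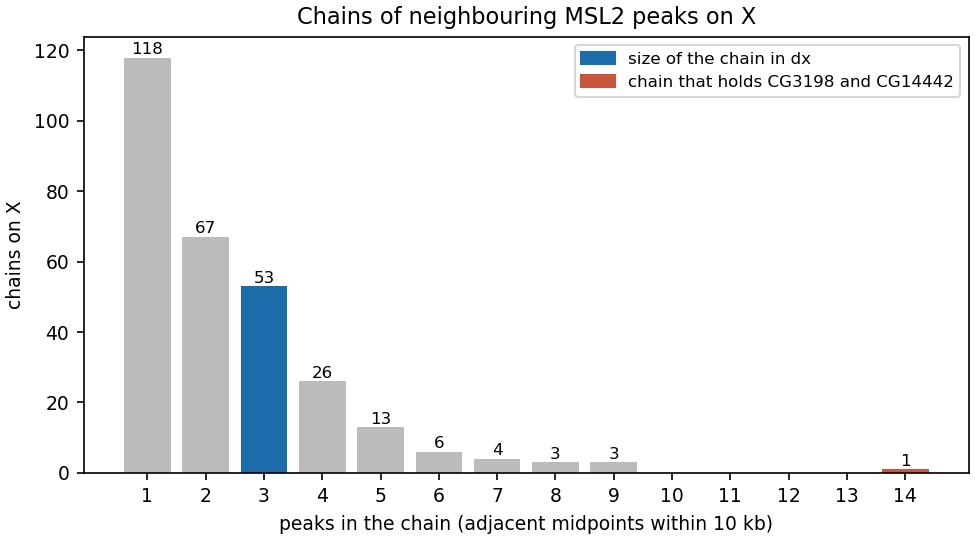
Number of chains on X (vertical axis) by number of peaks in the chain (horizontal axis), with adjacent midpoints linked within 10 kb; bars give the number of chains written above them. The 1 chain of 14 peaks holds CG3198 and CG14442, and dx is one of the 53 chains of 3.

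The number of regions at each gene changes when close peaks are merged. Merging midpoints within 1 kb leaves 3 regions in dx, 1 in CG3198 and 2 in CG14442. Among the 31 genes with exactly 3 midpoints, 16 kept 3 regions, 10 kept 2 and 5 were reduced to 1. CG3198 is one of these 5, whose others are su(sable), lncRNA:roX2, CG4025 and Hmt4-20.

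Because dx acts on Notch, 8 other X genes of the Notch pathway were examined, from a list written with earlier results of these data known. At least 1 midpoint lay inside 5 of them, and 6 had one inside or within 1 kb. Over all X genes these shares were 15.2% and 30.6%, and over protein-coding X genes 17.8% and 34.4%. The median of the 8 was 1 midpoint inside per gene, against 0 over all X genes. These comparisons are not matched for length, and several of the 8 genes are long. Among protein-coding X genes of only 4577 to 5712 bp, 35.0% held a midpoint. The shares and medians describe the listed genes only and were not tested. N, which encodes the Notch receptor, held 0 peaks in 37352 bp. The dynamin gene shi likewise held 0. In nej, the gene of the acetyltransferase CBP, there were 6, and in sgg, a kinase gene, there were 2 in 45602 bp. The genes sno, pcx and amx each held 1, and Bx42 had 1 within 1 kb of it. Per kb of gene, the number of midpoints inside was 0.703 in the short gene amx, 0.655 in dx and 0.277 in nej. It was lower in pcx (0.078), sno (0.062) and sgg (0.044), and 0 in N, shi and Bx42. The order of these levels rests on 0 to 6 peaks a gene and was not tested.

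A list of splicing factor genes on X, also written with earlier results of these data known, was examined as well. CG3198 had been entered in it when it was written, but the gene table gives no product for CG3198, so it is not counted here as a splicing factor gene. Of the other 5 genes, 2 held a midpoint, where the share over all X genes was 15.2%, and 4 had one inside or within 1 kb, where it was 30.6%. Over protein-coding X genes these shares were 17.8% and 34.4%, again without matching for length. The median was 0 midpoints inside, as over all X genes, and with 5 genes these shares were not tested. U2af50, which encodes a subunit of the factor that recognises the 3′ splice site, held 1 peak, at place 196. In su(w[a]) there were 4, at places 409 to 683. The U1 and U2 snRNP protein gene snf had 1 peak within 1 kb and 0 inside, Bx42, which is also on the Notch list, had the same counts, and Sxl, the switch gene of sex determination, had 0 in 23504 bp.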

How the data were processed

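The deposited file is 1 peak list for the series. Per the submitters' processing notes, Bowtie2 2.2.9, SAMtools 1.9, HOMER 4.9 and build dm6 were used, with no role given. Per the file headers, the authors ran HOMER findPeaks in factor style on 1 MSL2 and 1 control tag directory, and which libraries these hold is not stated. The thresholds for a peak were 10-fold over the control and 4-fold over the surrounding 10000 bp. The control filter removed 8575 of 9758 putative peaks and the local filter 474, a requirement that works against sites inside broad enriched regions. The deposited score is 1 for every peak and was not used.

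Positions are 1-based, and a peak is placed by its midpoint. Genes came from the RefSeq table for Release 6. Counts, distances and chains were computed with Python 3.11.15 and NumPy 2.4.6, and the counting was tested on simulated data. Named genes were the 3 genes, those between and beside them, the 3 other X genes most like each, and the 2 lists. These genes and lists were chosen with earlier results of these data known. No sequence was used here.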

Additional observations from a re-analysis of the deposited data

How the results depend on the processing

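No test was made, so the alternatives bear on counts and distances only. The count of 3 peaks was the same at dx, CG3198 and CG14442 with midpoints inside the gene only, with 500 bp around it and with an overlap of 1 bp. With 2 kb around the gene it became 4 at CG14442. In the first 354 peaks of the list there were 2 at dx, 3 at CG3198 and 0 at CG14442, which leaves 5 of 9 in all. Merging peaks within 1 kb left 3 regions at dx, 1 at CG3198 and 2 at CG14442, or 6 in all. Merging within 500 bp and within 2 kb was added after seeing the data. Within 500 bp the counts were 3 at dx, 3 at CG3198 and 2 at CG14442, or 8 in all. Within 2 kb they were 2 at dx, 1 at CG3198 and 2 at CG14442, or 5 in all. The median distance inside the genes, 938 bp, was 775 bp in the first 354 peaks and 2572 bp after merging within 1 kb. The share of X genes with 3 or more midpoints within 1 kb, 2.74%, was 3.23% among protein-coding genes and 1.48% with midpoints inside only. The chain of 14 peaks, also set after seeing the data, was 3 at CG3198 and 7 at CG14442 with links of 5 kb. In the first 354 peaks it was 3 at CG3198 and 0 at CG14442. The planned search for GA-rich motifs was not run, since no sequence was used here. No paired analysis was possible because peaks were deposited without values per library, and for the same reason no library could be left out.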
